A study of Arabidopsis thaliana with 18 samples.

Results

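The comparison described here sets Arabidopsis thaliana plants 3 h after a spray of GA4 against plants 1 h after the same spray. It rests on 4 of the 18 arrays of the series, chosen by their labels: the 2 GA4 arrays at 3 h, 1 of the wild type Col-0 and 1 of etr1-1, and the 2 GA4 arrays at 1 h (replicate 3 of each genotype) whose titles, like those of the 3 h arrays, begin with DV001. Steps from 1 h to 3 h were taken within each genotype. All plants were 14 days old and were grown at 22 °C, with 16 h of light and 8 h of dark, on MS/2 medium with sucrose. Whole plants were used, and Affymetrix ATH1 arrays read their transcripts. GA4 was dissolved in water. A water spray was sampled at 0 h and 1 h, and GA4 also at 30 min. At 3 h the groups used here hold GA4 only, so the time after GA4, the time after wetting and the time of day cannot be told apart. The 3 h arrays are labelled replicate 1 and these 1 h arrays replicate 3, so the replicate number moves with the time as well. Each group had 1 array in DV001. Nothing in the labels ties replicates to separate plants or cultures, so the p-values cover only the variation among these arrays, part of which may be technical.

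GA4 is a bioactive gibberellin. Gibberellins bind GID1 receptors, which leads to the breakdown of the DELLA repressors of growth. The etr1-1 line carries a dominant allele of the ethylene receptor gene ETR1 that makes plants insensitive to ethylene. Wetting, touch and wounding are known to raise a set of wall, calcium-signalling and stress transcripts in Arabidopsis within minutes, and these transcripts then decline. Growth of a plant cell requires its wall to loosen, in which expansins and xyloglucan endotransglucosylases (XTH) take part.

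Between 1 h and 3 h after GA4 the transcripts that fell furthest in both genotypes included genes of the cell wall: EXLA1, an expansin-like gene, XTH18, EXO, which encodes an extracellular protein that promotes growth, and ATPMEPCRB, a pectin methylesterase gene. Fewer transcripts rose, led among named genes by COR27, a cold-regulated gene whose transcript also follows the circadian clock. Of 15922 probe sets tested, 36 (0.226%) were lower at 3 h by 2-fold or more in both genotypes and 11 (0.0691%) were higher. A probe set is the group of probes that reads a transcript. Folds here and below are ratios of the deposited intensity plus 16 units, so the change of a dim probe set is understated. Of the 36, 18 read a single named gene, 1 read several and 17 are unnamed here. Of the 11, 4 read a named gene and 7 are unnamed. RNA from whole plants was measured, so fewer cells of a type and less RNA per cell cannot be told apart.

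**Figure D1:**
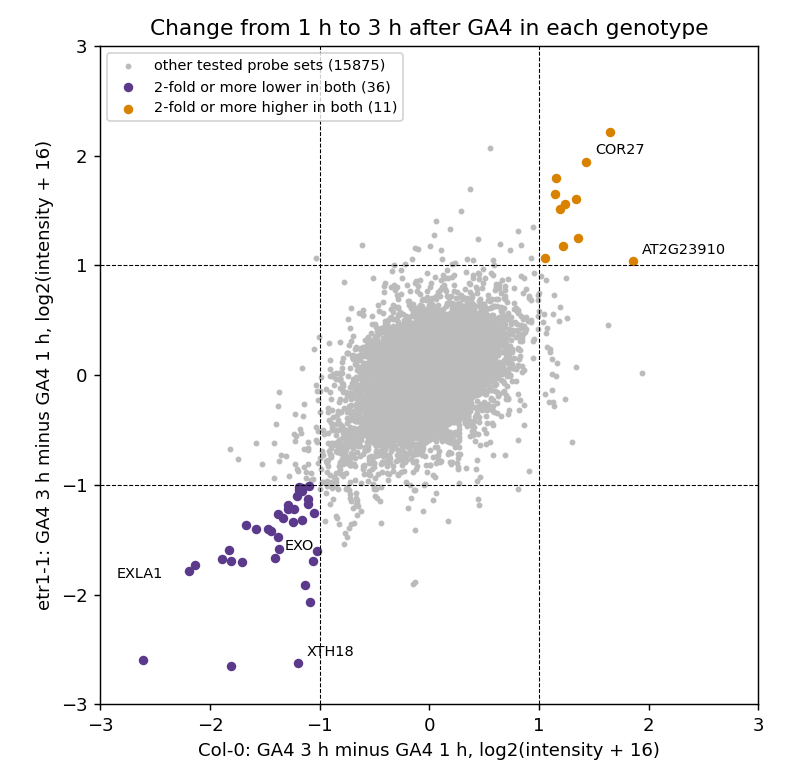
Each point is a probe set, with its log2 difference of 3 h minus 1 h after GA4 in Col-0 (x axis) and in etr1-1 (y axis), and coloured points mark the 36 that were lower and the 11 that were higher by 2-fold or more in both genotypes. EXLA1 lies at -2.19 and -1.79, XTH18 at -1.20 and -2.62, and COR27 at 1.43 and 1.95.

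EXLA1 belongs to the expansin-like A group, relatives of the expansins that loosen walls. Its intensity was 944.7 units at 1 h and 193.9 at 3 h in Col-0, and 700.5 and 191.6 in etr1-1. Both 3 h arrays were low and both 1 h arrays high, with no overlap. The mean step was -1.99 ± 0.11 (log2, SE, 2 arrays at each time), a 3.97-fold lower value at 3 h, with an adjusted p of 3.42e-09 in limma. For mean steps over the 4 arrays, limma takes the SE mostly from other probe sets of like intensity. It can thus be smaller than the 2 genotypes' own steps would give. Earlier in the course EXLA1 was at 121.4 units at 0 h and 817.0 at 30 min in Col-0, and at 222.4 and 822.6 in etr1-1. Its 3 h values thus lay near those of 0 h and below the 5 other arrays at 1 h of the same genotype (water or GA4), which ran from 692.2 to 1353.7 in Col-0 and from 628.0 to 1460.8 in etr1-1.

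XTH18 encodes an enzyme that cuts and rejoins xyloglucan chains. It was at 292.1 units at 1 h and 118.2 at 3 h in Col-0, and at 359.0 and 44.8 in etr1-1. Both 3 h arrays were the lower ones, and the step was deeper in etr1-1 (-2.62) than in Col-0 (-1.20). The mean step was -1.91 ± 0.21 (log2, SE, limma adjusted p = 1.47e-05). Against water at 1 h in DV001, which was at 197.5 and 202.2 units, the mean step was -1.26 and the 2-fold call in both genotypes was lost. The difference of -1.34 ± 0.63 between the genotypes' steps, from the fit over all 18 arrays, did not pass (adjusted p = 1.00 in limma, unadjusted 0.0516).

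EXO was at 689.1 and 250.2 units in Col-0 and at 469.7 and 137.4 in etr1-1, at 1 h and 3 h. Its mean step was -1.53 ± 0.10 (log2, SE, limma adjusted p = 6.39e-08). It had been at 1433.8 and 907.2 units at 30 min and at 129.8 and 125.2 at 0 h, so it was already lower at 1 h than at 30 min in both genotypes. ATPMEPCRB, whose product removes methyl groups from wall pectin, was at 194.3 and 65.6 units in Col-0 and at 163.5 and 43.8 in etr1-1. Its mean step was -1.48 ± 0.13 (log2, SE, limma adjusted p = 9.12e-07). At 0 h it had been at 44.2 and 61.0 units, close to the 3 h values. With the spread from all arrays of the series, neither EXO nor ATPMEPCRB passed in limma (adjusted p = 0.0683 and 0.0672). Their mean steps in that fit were -1.48 ± 0.36 and -1.46 ± 0.35 (log2, SE).

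Genes known here only by their locus fell as far. AT2G24600 was at 239.4 units at 1 h and 42.0 at 3 h in Col-0, and at 175.7 and 41.9 in etr1-1, a mean step of -1.93 ± 0.13 (log2, SE). AT1G69840 was at 692.1 and 183.3 units in Col-0 and at 555.4 and 173.0 in etr1-1, a mean step of -1.71 ± 0.10. AT1G65490 was at 344.5 and 81.3 units in Col-0 and at 391.5 and 111.7 in etr1-1, a mean step of -1.78 ± 0.11. In all 3 genes the 3 h arrays lay below every array at 1 h of their genotype. The remaining genes of the 15 largest named falls were AT1G70985, AT2G27080, AT5G19240, AT4G34150, AT3G06070, AT1G19380, AT5G62280 and AT1G35350, whose mean steps ran from -1.58 for AT1G70985 to -1.14 for AT1G35350. AT1G70985 differed from the others in its level at 1 h. It was at 147.8 and 68.3 units on the DV001 GA4 arrays of Col-0 and etr1-1, while the 4 GA4 arrays titled DV002 ran from 4.9 to 32.9 units. The largest fall of any probe set belonged to an unnamed one (245757_at), with a mean step of -2.60 ± 0.12.

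**Figure D2:**
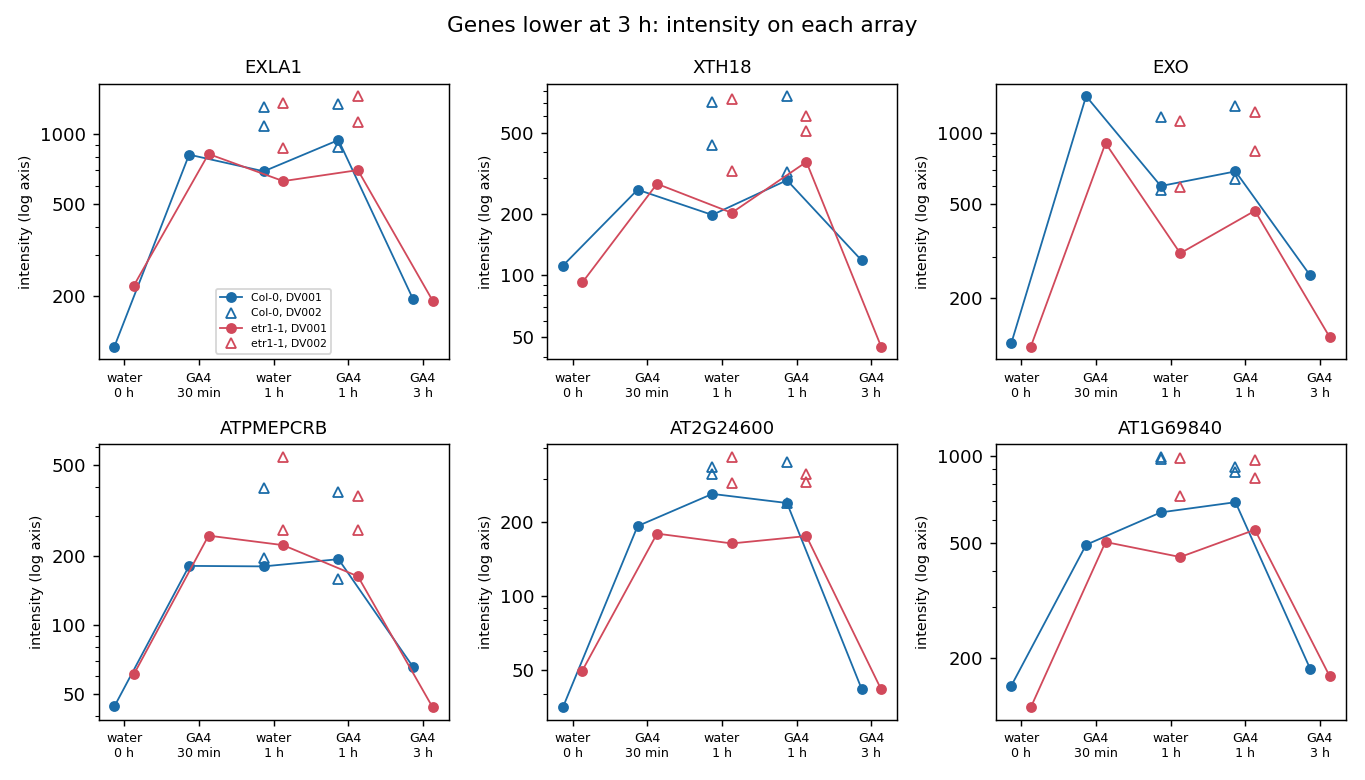
Deposited intensity (log axis) of genes that were lower at 3 h, on the DV001 arrays at 0 h (water), 30 min (GA4), 1 h (water and GA4) and 3 h (GA4), with filled points joined by lines, a colour per genotype, and open triangles for the DV002 arrays at 1 h. EXLA1 is at 193.9 and 191.6 units at 3 h, and in each of the 6 genes the 3 h points lie below all points at 1 h of the same genotype.

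Of the 36 probe sets, 34 were lower at 3 h than all 5 other arrays at 1 h of their genotype, in both genotypes, as were 1675 of all 15922 (10.5%). The exceptions were AT1G70985 and the unnamed 267260_at. The median step of the 36 was -1.29 in Col-0 and -1.40 in etr1-1 (log2), beside -0.01 and 0.02 over all tested probe sets. The 3 h arrays helped choose the 36, so the count of 34 and the medians only describe them. With the spread and the 1 h level from all 18 arrays, the same 4 among them, 25 of the 36 passed in limma. Of all 15922 tested probe sets 125 were lower in that fit. It uses the 3 h arrays that helped choose the 36, so the 25 are no separate support.

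Most of these transcripts had been higher early in the course than at 0 h. At 30 min after GA4, on arrays not used in the step from 1 h to 3 h, 163 probe sets (1.02% of those tested) stood 2-fold or more above water at 0 h in both genotypes. They included 26 of the 36, which is 72.2% of the 36 and 16.0% of the 163. At 1 h after water alone, 29 probe sets (0.182%) stood above 0 h by that measure, of which 19 were among the 36 (52.8% of the 36 and 65.5% of the 29). Over the 36, the median log2 difference from 0 h was 1.62 in Col-0 and 1.53 in etr1-1 at 30 min after GA4, and 1.43 and 1.1 at 1 h after water. For GA4 at 3 h minus water at 0 h the median difference was 0.17 and -0.20, on the same 3 h arrays that enter the step.

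GA4 and water could be compared for these 36 at 1 h on the DV002 arrays, which the step did not use. The median difference of GA4 minus water there was -0.04 in Col-0 and 0.08 in etr1-1 (log2). Among the 36 this difference ran from -0.61 to 0.23 in Col-0 and from -0.32 to 0.42 in etr1-1. Each of the 36 thus lay within 2-fold for both genotypes. So did all 15922 tested for Col-0, and 15917 of these for etr1-1. The 2-fold limit hence does not set the 36 apart and is no result about them. In EXLA1 the DV002 arrays of Col-0 were at 880.1 and 1353.7 units after GA4 and at 1085.4 and 1306.1 after water, so the sprays overlapped.

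The decline was also counted in groups defined on the earlier arrays alone. Of the 163 probe sets raised at 30 min, 150 in Col-0 and 156 in etr1-1 had a lower value at 3 h than at 1 h, with median steps of -0.54 and -0.58. Over all tested probe sets, 8186 and 7274 of 15922 had a lower value. In limma over the 4 arrays 96 of the 163 (58.9%) fell and 1 rose, beside 4.06% lower and 2.78% higher of all tested probe sets. The 29 raised 1 h after water all had a lower value at 3 h in both genotypes, with median steps of -1.25 and -1.31, and 28 of them (96.6%) fell in limma, against the same 4.06%.

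**Figure D3:**
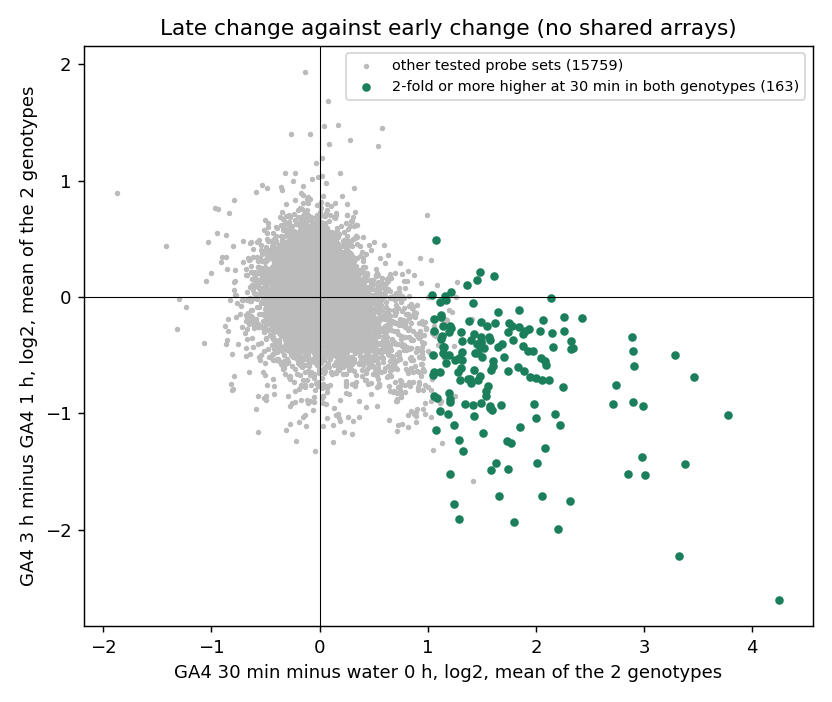
Each point is a probe set, with its mean log2 difference over the genotypes of GA4 at 30 min minus water at 0 h (x axis) and of 3 h minus 1 h after GA4 (y axis), which share no array. The 163 probe sets raised at 30 min lie mostly below 0 on the y axis, with median steps of -0.54 in Col-0 and -0.58 in etr1-1.

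COR27 led the named rises. It was at 37.2 units at 1 h and 127.5 at 3 h in Col-0, and at 38.2 and 192.7 in etr1-1. Both 3 h arrays were above both 1 h arrays, and the mean step was 1.69 ± 0.15 (log2, SE, 3.22-fold, limma adjusted p = 9.10e-07). At 0 h it was at 8.0 and 15.9 units and at 30 min at 10.8 and 15.8, so in the DV001 arrays it was higher at 1 h than at 30 min and higher again at 3 h. Water at 1 h in DV001 gave 43.6 and 46.5 units, close to GA4. The DV002 arrays at 1 h, in contrast, were at 113.2 to 155.9 units in Col-0 and at 92.2 to 166.1 in etr1-1, whichever the spray. With the DV002 GA4 arrays in place of DV001 the mean step of COR27 was 0.28, and with all 3 GA4 arrays at 1 h it was 0.75.

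The other named rises were AT1G07050, AT2G23910 and AT3G62550. AT1G07050 went from 53.2 to 158.7 units in Col-0 and from 40.9 to 157.6 in etr1-1, a mean step of 1.47 ± 0.13 (log2, SE, limma adjusted p = 1.46e-06). AT2G23910 went from 4.2 to 57.2 units in Col-0 and from 17.1 to 52.1 in etr1-1, a mean step of 1.45 ± 0.20. These low values at 1 h make the size of its fold depend on the offset. AT3G62550 was a strong transcript throughout, at 444.9 and 940.2 units in Col-0 and at 393.1 and 843.9 in etr1-1, a mean step of 1.06 ± 0.09. It had been at 722.6 and 508.6 units at 0 h, so its 3 h level was less than 2-fold above its starting level in both genotypes. Its adjusted p was 8.52e-07 in limma over the 4 arrays and 0.265 with the spread of all 18.

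**Figure D4:**
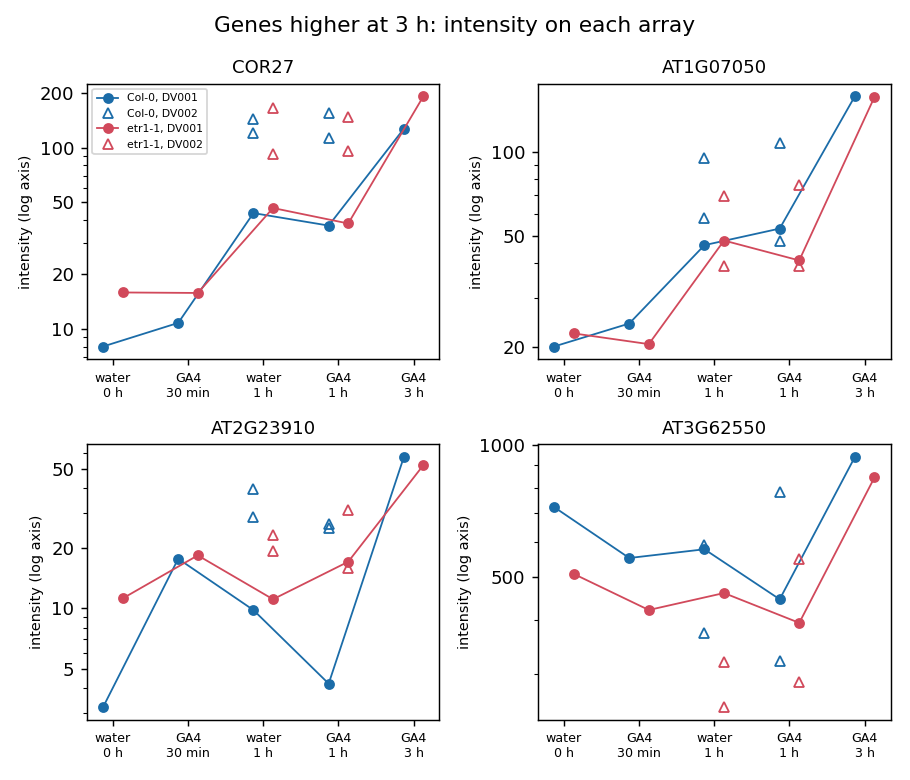
Deposited intensity (log axis) of the 4 named genes that were higher at 3 h, drawn as for the genes that were lower. COR27 is at 37.2 and 38.2 units on the DV001 GA4 arrays at 1 h and at 127.5 and 192.7 at 3 h, while its DV002 points at 1 h lie between 92.2 and 166.1.

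None of the 11 risen probe sets was 2-fold higher at 30 min after GA4, or at 1 h after water, in both genotypes. Only 1.02% and 0.182% of all tested probe sets were, so this is no result about the 11. Their median log2 difference of water at 1 h from 0 h was 0.51 in Col-0 and 0.47 in etr1-1. For COR27 it was 1.31 and 0.97. At 3 h, 7 of the 11 were above all 5 other arrays at 1 h of their genotype in both genotypes, as were 2122 of all 15922 (13.3%), and COR27 was among the 4 that were not. The median step of the 11 was 1.24 in Col-0 and 1.56 in etr1-1 (log2). The 3 h arrays helped choose the 11, so the count of 7 and the medians only describe them. Against the DV002 GA4 arrays at 1 h, 1 of the 11 rises (the unnamed 262536_at) and 32 of the 36 falls were still 2-fold or more in both genotypes. Whether a rise was called thus depended on which arrays stood for 1 h.

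Smaller changes were tested in limma with the genotype as a block, over the same 4 arrays. There 647 probe sets (4.06%) were lower and 443 (2.78%) higher at 3 h at an adjusted p of 0.05, and 68 and 18 of them by 2-fold or more in the mean. The spread in this test combines the difference between the steps of 2 genotypes (1 residual degree of freedom) with a prior of 16.2 degrees of freedom. That prior comes from probe sets of like intensity and carries most of the weight, so a gene's own 2 steps count little. With the spread from all 18 arrays, where the single arrays are assumed to vary like the groups of 3, 125 were lower and 53 higher. Wherever that spread is named here, the fit also takes the 1 h level from all 3 arrays of a group. The step itself can then change as well as its SE. With no filter on dim probe sets 56 and 12 passed over the 4 arrays.

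Gene lists were described by their limma calls over the 4 arrays, to be read beside the 4.06% lower, the 2.78% higher and the median mean step of 0.01 (log2) over all tested probe sets. Of 16 tested expansins 3 were lower (18.8%) and 0 higher, and the median mean step was 0.04. The 3 were the expansin-like genes EXLA1, EXLA2 and EXLA3. EXLA2 was at 72.9 and 35.5 units in Col-0 and at 39.7 and 15.7 in etr1-1, a mean step of -0.80 ± 0.16 (log2, SE, limma adjusted p = 0.00428). EXLA3 was at 23.3 and 9.0 units in Col-0 and at 28.9 and 3.6 in etr1-1, a mean step of -0.92 ± 0.21 (limma adjusted p = 0.0104). With the spread of all 18 arrays the adjusted p was 0.692 for EXLA2 and 0.122 for EXLA3. No alpha- or beta-expansin passed, and the highest step among the 16 was 0.44 for EXPA9 (limma adjusted p = 0.0523).

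Of 7 tested XTH genes 4 were lower (57.1%, beside 4.06% of all) and 0 higher, with a median mean step of -0.63. Beside XTH18, XTH19 was at 186.7 and 44.4 units in Col-0 and at 144.5 and 78.6 in etr1-1, a mean step of -1.25 ± 0.17 (log2, SE, limma adjusted p = 1.67e-04). XTH33 was at 88.6 and 41.8 units in Col-0 and at 53.6 and 18.5 in etr1-1, a mean step of -0.93 ± 0.15. XTH16 was at 550.3 and 305.4 units in Col-0 and at 269.1 and 192.8 in etr1-1, a mean step of -0.63 ± 0.11. Within each genotype the 3 h value was below the 1 h value in all 4 genes. With the spread of all 18 arrays XTH18 passed (adjusted p = 0.0371) and XTH19, XTH33 and XTH16 did not (0.101, 0.0627 and 0.201).

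Among 7 tested cellulose synthase and related genes, 3 were lower (42.9%, beside 4.06% of all) and 0 higher, with a median of -0.04. CSLC04, which belongs to the family that makes the glucan backbone of xyloglucan, was at 486.4 and 263.4 units in Col-0 and at 453.1 and 236.4 in etr1-1. Its mean step was -0.87 ± 0.10 (log2, SE, limma adjusted p = 2.58e-05, and 0.0425 with the spread of all 18 arrays). CSLA03 (-0.46) and CSLD2 (-0.38) fell less, and neither passed with the spread of all 18 arrays (0.172 and 0.305).

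The touch and wounding list had 8 tested members, of which 1 was lower (12.5%, beside 4.06% of all) and 0 higher, with a median of -0.23. STZ, a zinc finger repressor gene, was at 117.4 and 59.7 units in Col-0 and at 109.4 and 61.5 in etr1-1. Its mean step was -0.76 ± 0.13 (log2, SE, limma adjusted p = 0.00146, and 0.209 with the spread of all 18 arrays). STZ had been at 440.1 and 448.1 units at 30 min, so the larger part of its decline lay before 1 h. CML38, a calmodulin-like gene that binds calcium, was at 25.7 and 19.9 units in Col-0 and at 51.7 and 18.5 in etr1-1 and did not pass (-0.59 ± 0.19, limma adjusted p = 0.0769). Of 6 tested WRKY transcription factor genes 0 were lower and 0 higher, with a median of -0.19. The list of heat shock proteins, with 2 tested, also had no call.

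**Figure D5:**
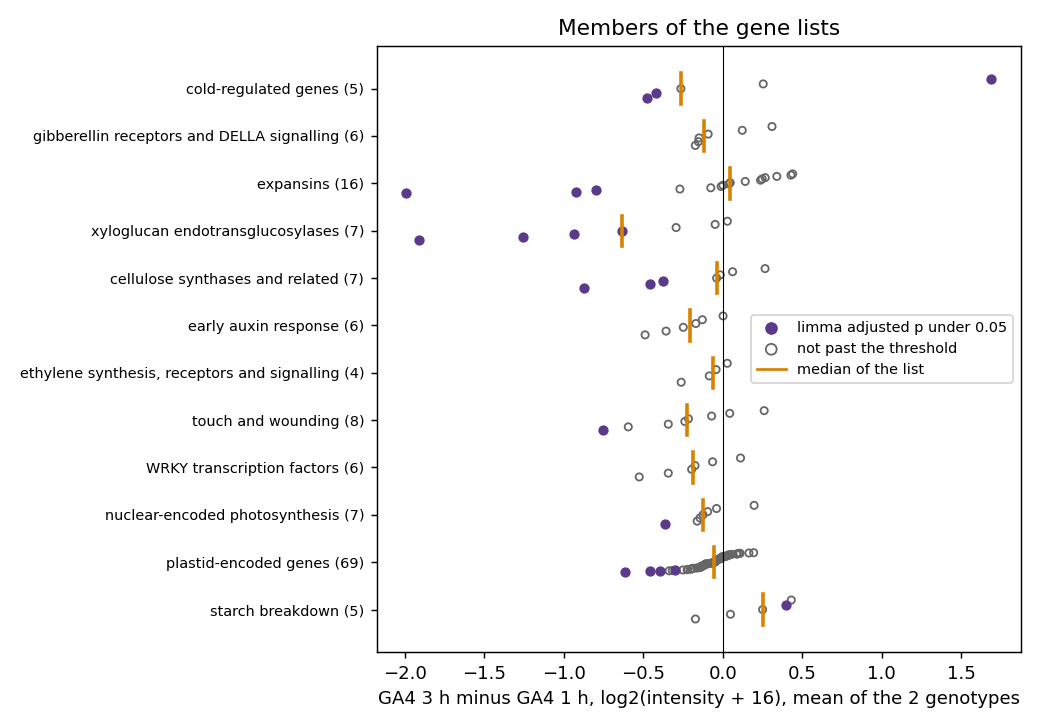
Each point is a tested member of a gene list with 3 or more tested members, placed by its mean log2 difference of 3 h minus 1 h after GA4 over the 2 genotypes, where filled points passed limma over the 4 arrays and bars mark list medians. The XTH members lie lowest as a list, with a median of -0.63, while EXLA1 at -1.99 stands apart from the expansins, whose median is 0.04.

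Of 5 tested cold-regulated genes, COR27 was higher and COR47 and LTI30 were lower, with a median of -0.26, beside 2.78% higher and 4.06% lower of all. COR47, a dehydrin gene, was at 1129.9 and 792.0 units in Col-0 and at 1016.2 and 737.3 in etr1-1, a mean step of -0.48 ± 0.09 (log2, SE, limma adjusted p = 0.00202). LTI30, another dehydrin gene, had a mean step of -0.42 ± 0.10 (limma adjusted p = 0.0183). COR15A (-0.26) and COR15B (0.25), which encode chloroplast proteins of the cold response, did not pass, nor did COR47 and LTI30 with the spread of all 18 arrays (adjusted p = 0.208 and 0.687). Both clock genes tested, GI (0.04) and CCR2 (-0.26), did not pass.

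No member of the hormone lists for gibberellin, ethylene or auxin passed. Of 6 tested genes for gibberellin receptors and DELLA signalling 0 were lower and 0 higher, with a median of -0.12. GID1A, a gibberellin receptor gene, was at 76.2 and 97.8 units in Col-0 and at 85.1 and 109.8 in etr1-1, a step of 0.31 ± 0.13 that did not pass (log2, SE, limma adjusted p = 0.173). GID1B was at 24.1 and 23.2 units in Col-0 and at 33.1 and 24.6 in etr1-1. The 4 tested ethylene genes, EIN3, RTE1, RTH and ARL, had a median of -0.06, and 6 early auxin genes a median of -0.21. PDF1.2b, whose probes can cross-hybridise and which is a defensin gene induced by jasmonate, was lower (-0.84 ± 0.20, limma adjusted p = 0.0137, and 0.264 with the spread of all 18 arrays). XERICO, of the abscisic acid list, had a step of 0.14 and did not pass.

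Few genes of photosynthesis and metabolism passed. Of 69 tested plastid-encoded genes 4 were lower (5.80%) and 0 higher, with a median of -0.05. That share is near the 4.06% of all tested probe sets and is no result about these genes. The 4 were psaA (-0.62), atpH (-0.46), atpF (-0.39) and psbC (-0.30), and none passed with the spread of all 18 arrays. Their steps in that fit were smaller too, at -0.32, -0.19, -0.37 and -0.22. Of 7 nuclear photosynthesis genes LHCB4.2, for a light-harvesting protein, was lower (-0.36 ± 0.08, limma adjusted p = 0.0112) and 0 were higher, and 1 call of 7 says little beside 4.06%. Of 5 genes of starch breakdown 1 was higher, a locus named PWD (0.40 ± 0.10, limma adjusted p = 0.0218), which encodes a kinase of starch glucans. A second locus of that name had -0.17 and did not pass. CHI (-0.50 ± 0.12, limma adjusted p = 0.0185) and APS3 of sulfate assimilation (-0.38 ± 0.11, limma adjusted p = 0.0468) were lower. CHI here is the locus AT2G43570, which the flavonoid list took in by its symbol alone. Its fall is thus no result about flavonoid synthesis. None of LHCB4.2, the higher PWD locus, CHI and APS3 passed with the spread of all 18 arrays.

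Outside these lists and the 2-fold calls, further genes with a symbol passed limma and are named after their values were seen. OPCL1, an enzyme of jasmonate synthesis, was at 198.6 and 114.5 units in Col-0 and at 277.8 and 99.0 in etr1-1, a mean step of -1.04 ± 0.14 (log2, SE, limma adjusted p = 1.17e-04). RALFL22, a peptide of the rapid alkalinisation factor family, was at 368.9 and 180.2 units in Col-0 and at 301.4 and 175.9 in etr1-1 (-0.85 ± 0.11). The receptor kinase genes THE1 (-0.58), a monitor of wall integrity, and FER (-0.42), a receptor of such peptides, were lower too. FHL, which helps carry phytochrome A into the nucleus, was at 64.2 and 26.2 units in Col-0 and at 65.5 and 29.9 in etr1-1 (-0.88 ± 0.15). On the higher side were STOMAGEN (0.66 ± 0.13), a peptide gene that promotes stomata, CHX20 (0.71 ± 0.16), a cation exchanger gene of guard cells, and PRH75 (0.42 ± 0.10), an RNA helicase gene. With the spread of all 18 arrays OPCL1 (adjusted p = 0.0176) and FHL (0.00792) passed, and of the other genes of this paragraph none did.

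The steps were also compared between the genotypes. Across the 15922 probe sets (not independent of each other) the Col-0 and etr1-1 steps correlated at a Pearson r of 0.466 and a Spearman rho of 0.383, with no array in common. The SD of the steps was 0.299 in Col-0 and 0.290 in etr1-1. In Col-0 alone 83 probe sets were 2-fold or more lower and 41 higher, and in etr1-1 94 and 39. AT1G14330 was the 1 probe set that moved 2-fold or more in opposite directions, from 131.8 to 56.3 units in Col-0 and from 72.1 to 168.2 in etr1-1.

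The genotypes' steps did not differ for any gene past the threshold. Limma over all 18 arrays, with the title prefix as a block, gave 0 calls. An unadjusted p under 0.05 was found for 468 of 15922 probe sets. That share is below the 0.05 that would pass if no step differed. AT1G14330 had the largest positive difference of etr1-1 minus Col-0 among named genes, 1.56 ± 0.42 (log2, SE, limma adjusted p = 1.00). It was followed by AT3G02480 (1.37), AT3G21960 (1.35), AT2G16005 (1.34) and AT4G25600 (1.29). This fit takes the 1 h level from all 3 arrays of a group, and on the 4 arrays of the comparison alone the differences were smaller for these 4, at 0.09, 0.94, 0.93 and 0.78. AT3G02480 thus had nearly equal steps there, -0.24 in Col-0 and -0.14 in etr1-1, while AT1G14330 differed by 2.1. On the negative side were AT2G07776 (-1.47), AT5G48430 (-1.45), XTH18 (-1.34), AT1G70985 (-1.24) and AT1G23120 (-1.23), and none passed. On the 4 arrays alone these differed by -1.50, -1.11, -1.43, -0.98 and -1.02. The 95% interval of the difference lay within 2-fold for 82.9% of probe sets, and reached beyond it for the others.

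The 4 arrays had similar levels of tissue markers. The root gene PYK10 ran from 2334.6 to 2675.3 units, the leaf gene RCA, for Rubisco activase, from 2496.1 to 2916.0, and LHCB4.1 from 2719.4 to 3451.0. Correlations of log2 values between the arrays lay between 0.958 and 0.974. The Col-0 array at 3 h stood apart in some technical values and not in others. Its title lacks the word repeat that the other 3 carry, its background was 84.05 units against 100.09 to 109.95, and its log2 ratio of 3' to 5' actin probe sets was 2.56, against 1.42 for Col-0 at 1 h and 1.68 and 1.78 for etr1-1 at 1 h and 3 h. Its GAPDH ratio of 0.34 lay within the 0.21 to 0.38 of the other 3, as did its noise of 6.00 units within 5.96 to 6.70. The background and the actin ratio move with time in Col-0, and their part in the steps was not tested.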

How the data were processed

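The authors deposited a linear intensity for each probe set. Their software is not given in the sources used. The deposited arrays had been scaled to a common level, since the mean after trimming 2% at each end was 100.007 to 100.008 on the 4 arrays. No further scaling was applied. Values were used as log2(value + 16). Of 22810 probe sets, 64 controls and those with a mean under the 30 th percentile were left out, which left 15922. Of all non-control probe sets 13513 name 1 gene, 503 several, and 8730 are unlisted in the platform table. RefSeq symbols (TAIR10.1) matched 13436. Coordinates are not used here.

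Limma 3.58.1 (R 4.3.3) with lmFit, eBayes and an intensity trend gave Benjamini-Hochberg adjusted p-values, with a threshold of 0.05. It was run on simulated data with independent noise on each array and equal changes in both genotypes. The real arrays need not behave so, and that run is no support for the calls. The genotype was a block over 4 arrays. Over 18 arrays there was 1 term per group, with the title prefix as a block. Named genes are the 15 largest rises and falls among single-gene probe sets past 2-fold in both genotypes, as many as 4 called genes per list, and the 5 largest differences between genotypes each way. Of 25 gene lists (1 probe set per gene), 12 had 3 or more tested members, 8 had 1 or 2, and 5 are not analysed here: the morning clock, gibberellin metabolism, the GASA family, arabinogalactan proteins and aquaporins. The lists with fewer members not named in the results, sugar starvation and root markers, had no call. Members and lists were chosen with earlier results of these data known. A planned search for promoter motifs was not made, because no sequence was at hand. Alternatives were other offsets, quantile normalization, no filter, no trend, other thresholds, other arrays at 1 h and each genotype alone. The number of arrays limits the precision.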

Additional observations from a re-analysis of the deposited data

How the results depend on the processing

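The 2-fold calls in both genotypes, 36 lower and 11 higher, became 82 and 21 with an offset of 1, 201 and 64 at 1.5-fold, and 209 and 29 against the DV002 GA4 arrays at 1 h. With an offset of 32, 23 were lower, and against the mean of the 3 GA4 arrays at 1 h 121. Against water at 1 h in DV001, 7 were higher, and 22 of the 36 falls and 10 of the 18 named ones were still called, XTH18 not among them. With an offset of 32, 12 of the 18 named falls were still called. Each genotype alone gave 83 to 94 lower and 39 to 41 higher. Of the 18 named falls 16 were still called against the DV002 arrays, 1 was not (AT5G62280), and AT1G70985 reversed, with a step of 0.018. None of the 4 named rises was still called there. The limma calls, 647 lower and 443 higher, became 56 and 12 with no filter and 276 and 109 with no intensity trend. With the spread pooled over 18 arrays they became 125 and 53 with the title prefix as a block, and 140 and 84 without it. At an adjusted p of 0.10, 786 were higher. Quantile normalization kept both kinds of count within 1.5-fold. The difference between genotypes had 0 calls in each alternative but an offset of 1, with 1 call. The cause of these changes was not tested. The limma test over 4 arrays pairs them by genotype. For replicate numbers as the block, no paired analysis was possible because the 3 h arrays carry number 1 and the DV001 arrays at 1 h number 3. With 1 array per group, changes in dim genes are limited by their signal over background.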
